A study of Mus musculus with 3 samples.

Results

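Cytochrome P450 enzymes of families 1 to 3 carry out most of the oxidative metabolism of drugs and other foreign compounds in the liver. They sit in the endoplasmic reticulum, bind haem, and take electrons from NADPH through a shared partner, P450 reductase (Por). Their genes are controlled by ligand-activated receptors: the aryl hydrocarbon receptor (Ahr) drives Cyp1a1 and Cyp1a2, the constitutive androstane receptor (Nr1i3) drives Cyp2b10, and the pregnane X receptor (Nr1i2) drives Cyp3a11.

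Here 8 P450 genes and Por were followed, 9 genes in all, beside the 10526 genes that the platform annotation names for single-gene probe sets of the deposited log2 ratio table. They were read by 9 of its 19824 probe sets, the manufacturer's controls set aside. The probe sets were listed by ID: 1422217_a_at for Cyp1a1, 1450715_at for Cyp1a2, 1419590_at for Cyp2b9, 1422257_s_at and 1425645_s_at for Cyp2b10, 1422230_s_at for Cyp2a4 and Cyp2a5 together, 1415994_at for Cyp2e1, 1416809_at for Cyp3a11 and 1416933_at for Por. A probe set is a group of short oligonucleotides whose brightness is summarised as a single value. The platform annotation used here gave the same genes for 8 of the 9. It does not list 1416933_at, which is called Por on the word of the ID list alone. All 9 had a ratio on at least 1 array and 8 had a ratio on all 3.

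The samples were livers of female BALB/c mice, an inbred strain, and each of 3 groups was 1 array. Young control mice were 10 weeks old and ate normal food, old control mice were 50 weeks old and ate normal food, and old Chlorella mice were 50 weeks old and ate food with 2.0% powder of the green alga Chlorella. RNA of 6 mice was pooled for each array, so differences between mice were not measured and no p-value could be computed. The title of the series speaks of ovalbumin sensitization, which no sample label mentions.

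Levels below are log2 signals of the series matrix, and differences are those between deposited log2 ratios. The 2 files gave the same differences to within 0.001 over every probe set that had both. Differences were counted from 1 upwards on the log2 scale, that is from 2-fold. Between old control and young control 18.3% of 16667 probe sets passed it (9.55% higher and 8.8% lower), between old Chlorella and old control 1.52% of 16524 (0.841% higher and 0.678% lower), and between old Chlorella and young control 15.2% of 16572. The direction of the age calls depended on the scaling: 52.0% of them were increases as deposited, against 15.5% and 4.78% once arrays were shifted to the bacterial hybridization or poly-A controls. Those shifts moved the median age difference of all probe sets from -0.114 to -0.52 and -0.865 (log2).

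Of the 8 probe sets with a ratio on both control arrays, 1 passed 2-fold downward with age and none upward, against 8.8% and 9.55% of all probe sets. The median age difference of the 8 was 0.01 (log2), beside -0.114 for all probe sets. By diet, old Chlorella against old control, 1 of 8 passed 2-fold upward, against 0.841% of all probe sets, and none downward. Here the median of the 8 was 0.17 (log2), beside 0.003.

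**Figure D1:**
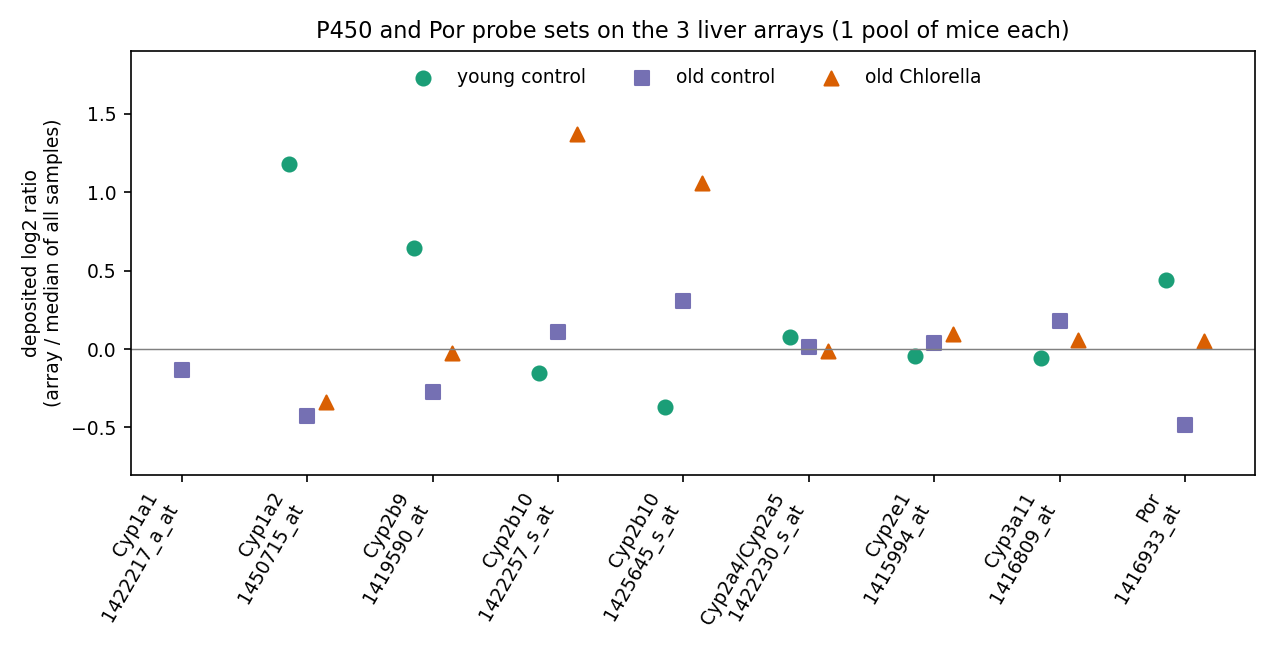
Deposited log2 ratio (vertical axis) of each P450 or Por probe set (horizontal axis) on the 3 arrays, 1 point per array. Cyp1a2, Cyp2b9 and Por were highest in young control, both Cyp2b10 probe sets were highest in old Chlorella, Cyp2a4/Cyp2a5, Cyp2e1 and Cyp3a11 stayed close together, and Cyp1a1 has a ratio on old control alone.

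Cyp1a2, which oxidises caffeine and aromatic amines, showed the widest age difference of the 9. Its log2 signal was 13.39 in young control, 11.78 in old control and 11.87 with Chlorella. The young array thus stood alone, and the old arrays lay together. Old control was 3.04-fold lower than young control (-1.61, log2) and old Chlorella 2.86-fold lower (-1.52), whereas the old arrays differed by 0.09. Among 1489 probe sets of like mean brightness (log2 signal from 12 to below 14), 5.91% passed 2-fold downward with age. The direction against young control was the same under all 6 scalings, with an age difference between -2.36 and -1.35, the latter after quantile normalization. The deposited ratios and the series matrix signals, both counted among the 6, give the same differences. The shifts to bacterial controls lower every age difference, so they could not have reversed this one.

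Cyp1a1, the closest relative of Cyp1a2 and in many tissues the most inducible target of Ahr, was near the lower limit of the arrays. The ratio table gives a value for it on old control alone (-0.135, log2 ratio), and the other cells are empty. In the series matrix its log2 signal was 5.79 in young control, 6.20 in old control and 6.47 with Chlorella, against array medians of 6.08, 6.33 and 6.46. It therefore lay below the median of its array in both control groups, and its differences of 0.41 by age and 0.27 by diet were not counted. At this signal a decrease like that of Cyp1a2 could not have been measured.

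Cyp1a1 and Cyp1a2 are neighbours on chromosome 9. Their promoters are shown because both genes answer to Ahr while only Cyp1a2 gave a strong signal here. The sequences are RefSeq's for GRCm38.p6, 250 bases before to 50 after the start of the gene, with chr9:57697363-57697662 on the plus strand for Cyp1a1 and chr9:57683606-57683905 on the minus strand for Cyp1a2. Capitals mark GCGTG, the core of the Ahr recognition sequence, AGGTCA, the hexamer that many nuclear receptors bind, and TATAAA, the TATA box, each searched on both strands.
Cyp1a1: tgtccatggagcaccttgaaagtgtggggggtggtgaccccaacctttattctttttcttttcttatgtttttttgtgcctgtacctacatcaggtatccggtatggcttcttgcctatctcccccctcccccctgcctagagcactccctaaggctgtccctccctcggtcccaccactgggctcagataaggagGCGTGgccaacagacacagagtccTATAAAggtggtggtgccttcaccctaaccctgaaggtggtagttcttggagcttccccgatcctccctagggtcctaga
Cyp1a2: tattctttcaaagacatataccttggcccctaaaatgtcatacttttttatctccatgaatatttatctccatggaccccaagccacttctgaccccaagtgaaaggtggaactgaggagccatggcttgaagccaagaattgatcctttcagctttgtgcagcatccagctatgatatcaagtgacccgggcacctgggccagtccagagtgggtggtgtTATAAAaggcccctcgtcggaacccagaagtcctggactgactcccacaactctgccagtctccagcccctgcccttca
Both hold a TATA box, at position -30 in Cyp1a1 and -29 in Cyp1a2 relative to the first base of the gene. GCGTG is in the Cyp1a1 window at position -54 and not in that of Cyp1a2. Over 32851 promoters of the same length GCGTG occurs in 32.4%, AGGTCA in 16.3% and TATAAA in 13.6%. The letters describe the windows only, and enhancers further away were not searched.

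Of the other genes listed as Ahr targets, 3 had ratios on both control arrays, in 5 probe sets. Xdh, which encodes xanthine dehydrogenase, was the only one past 2-fold by age, with log2 ratios of 1.745 in young control, 0.022 in old control and -0.022 with Chlorella and an age difference of -1.72. That is 1 of 5 probe sets lower (20%), against 8.8% of all probe sets. The other 4 probe sets were all above 0 (up to 0.56, log2). None of the 5 passed 2-fold by diet. Ahr itself was measured by 2 probe sets that went opposite ways with age, -0.55 at 1450695_at and 0.49 at 1422631_at, and both were lower with Chlorella than without in old mice, at -0.37 and -0.35. Its partner Arnt had age differences between -0.55 and -0.32 over 3 probe sets.

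Cyp2b10 was the member that stood out by diet. It is the classical mouse target of Nr1i3 and is induced by phenobarbital. At 1422257_s_at its log2 signal was 7.06 in young control, 7.32 in old control and 8.58 with Chlorella. At 1425645_s_at it was 7.78, 8.45 and 9.20 in the same order. Both probe sets therefore ranked the 3 arrays alike, with old Chlorella highest. Old Chlorella exceeded old control 2.40-fold at the former (1.26, log2) and 1.68-fold at the latter (0.75), so that only 1 of the 2 passed 2-fold. Against young control both passed it, at 2.87-fold (1.52) and 2.69-fold (1.43). The age differences were smaller, 0.26 and 0.67 (log2), and came to -0.49 and -0.08 at the lowest under other scalings, so their direction was not settled.

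The probe sets are of the kind marked _s_at, whose oligonucleotides can match more than 1 transcript, and the annotation gives Cyp2b10 alone for both. They share a gene and the same 3 pools, so the second is no replicate of the first. The signals were weak to moderate. Among 4298 probe sets with a mean log2 signal below 8, where 1422257_s_at lies, 2.23% passed 2-fold upward by diet, and among 6458 from 8 to below 10, where 1425645_s_at lies, 0.418%. Under the 6 scalings the diet difference ranged from 1.25 to 1.63 at 1422257_s_at and from 0.74 to 1.04 at 1425645_s_at.

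Cyp2b9, a close relative on the same chromosome that is expressed mainly in female mouse liver, followed another order. Its log2 signal was 13.75 in young control, 12.84 in old control and 13.08 with Chlorella, highest in the young array. Old control was 1.88-fold lower than young control (-0.91, log2) and old Chlorella 1.59-fold lower (-0.67), neither of which reached 2-fold. The diet difference was 0.25. Shifting the arrays to the bacterial hybridization or poly-A controls took the age difference past 2-fold, to -1.67 at the lowest. These shifts lower every age difference alike, so the crossing is not particular to Cyp2b9. Cyp2b13, the protein-coding gene between Cyp2b10 and Cyp2b9, had an age difference of -0.64 and a diet difference of -0.05.

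The promoters of the Cyp2b pair are shown because the genes are alike in sequence and differed in which array was highest. In GRCm38.p6 they are chr7:25897408-25897707 for Cyp2b10 and chr7:26173159-26173458 for Cyp2b9, both on the plus strand, with capitals as above.
Cyp2b10: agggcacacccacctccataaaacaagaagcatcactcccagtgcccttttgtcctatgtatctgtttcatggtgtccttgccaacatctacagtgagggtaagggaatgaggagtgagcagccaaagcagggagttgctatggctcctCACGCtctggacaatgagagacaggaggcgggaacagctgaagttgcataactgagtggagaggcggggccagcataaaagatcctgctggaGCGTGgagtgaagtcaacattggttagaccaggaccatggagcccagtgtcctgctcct
Cyp2b9: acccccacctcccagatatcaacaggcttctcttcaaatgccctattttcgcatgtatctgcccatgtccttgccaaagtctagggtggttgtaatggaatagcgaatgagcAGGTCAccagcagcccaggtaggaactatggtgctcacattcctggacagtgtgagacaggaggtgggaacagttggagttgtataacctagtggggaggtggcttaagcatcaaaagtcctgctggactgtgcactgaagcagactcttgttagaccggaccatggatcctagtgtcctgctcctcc
Aligned end to end, they were identical at 223 of 311 columns (71.7%). Cyp2b10 has 2 GCGTG matches, of which 1 is on the other strand, and Cyp2b9 has 1 AGGTCA. The phenobarbital-responsive enhancer of Cyp2b10 is known to lie further upstream than this window. Over the 9 genes GCGTG was found in 3 promoters, AGGTCA in 4 and TATAAA in 6. The TATAAA of Cyp3a11 lies at position -234, away from the -31 to -28 of the other genes, and is counted by its letters only. The counts include both Cyp2a4 and Cyp2a5, whose AGGTCA lies after the start of the gene, at 30 and 29.

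Cyp2a4 and Cyp2a5, a steroid hydroxylase and the coumarin hydroxylase of mouse liver, were read together by 1422230_s_at. Their promoters are 97.7% identical (294 of 301 aligned columns), and the array cannot tell their transcripts apart. The log2 signal was 14.59 in young control, 14.53 in old control and 14.50 with Chlorella. These are differences of -0.06 by age and -0.03 by diet. An opposite change of the 2 genes would not show in their joint signal.

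Cyp2e1, which oxidises ethanol and paracetamol and is found in hepatocytes around the central vein, had log2 signals of 15.53, 15.62 and 15.67 in the same order. Cyp3a11, the main mouse counterpart of human CYP3A4 and a target of Nr1i2, had 15.20, 15.43 and 15.31. As deposited, the largest difference between the control arrays or between the old arrays for either gene was 0.23 (log2), that of Cyp3a11 by age. All 3 of these probe sets were very bright, and as deposited their highest and lowest arrays differed at most 1.18-fold.

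At this brightness other probe sets behaved differently with age. Among 573 probe sets with a mean log2 signal of at least 14, the median age difference was 0.58 (log2), 25.3% passed 2-fold upward and 0.349% downward. Cyp2a4/Cyp2a5, Cyp2e1 and Cyp3a11 all lay below that median. Relative to the median of all probe sets, a measure that no shift of an array changes, their age differences were 0.05, 0.20 and 0.35, against -1.49 for Cyp1a2. As deposited, Cyp2e1 and Cyp3a11 were higher in old control, by 0.08 and 0.23 (log2). After a shift to the hybridization controls the age differences were -0.32 for Cyp2e1, -0.17 for Cyp3a11 and -0.47 for Cyp2a4/Cyp2a5, and with the poly-A controls -0.67, -0.52 and -0.81, so no direction can be given. Whether very bright probe sets respond in proportion on these arrays was not tested.

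Por, read by 1416933_at, passes electrons to every microsomal P450. Its log2 signal was 11.81 in young control, 10.89 in old control and 11.42 with Chlorella. The last lay between the other arrays. Old control was 1.89-fold lower than young control (-0.92, log2), and old Chlorella was 1.45-fold higher than old control (0.53) and 1.31-fold lower than young control (-0.39). None of these reached 2-fold as deposited. The directions were the same under all 6 scalings. Of these, the shifts to bacterial controls lower every age difference and raise every diet difference, so they could not have reversed those of Por. With these shifts the age difference passed 2-fold (-1.67 at the lowest).

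**Figure D2:**
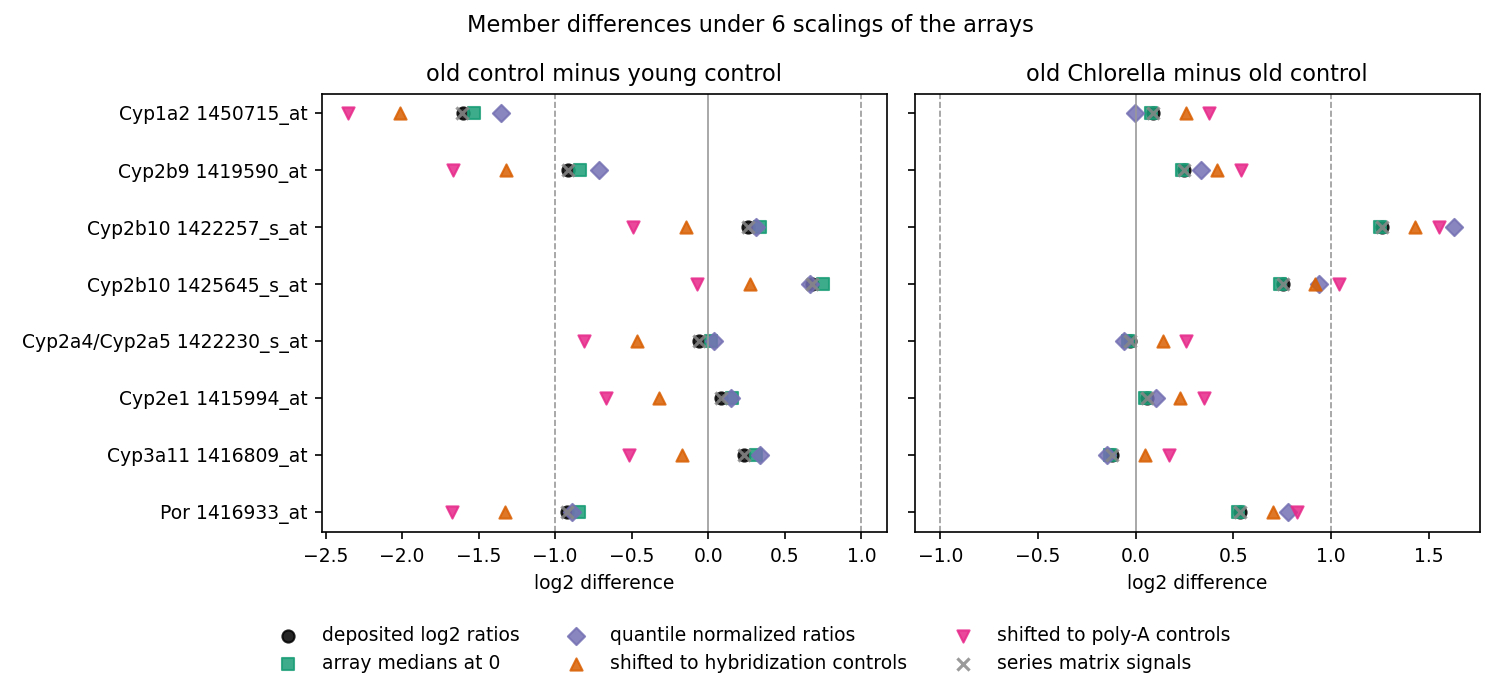
Log2 difference (horizontal axis) of 8 member probe sets (vertical axis) for old control minus young control (left) and old Chlorella minus old control (right) under 6 scalings, 1 symbol per scaling, with dashed lines at 2-fold. Cyp1a2, Cyp2b9 and Por lie left of 0 by age under every scaling, both Cyp2b10 probe sets lie right of 0 by diet, and Cyp2a4/Cyp2a5, Cyp2e1 and Cyp3a11 cross 0 by age.

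Old Chlorella against young control, where age and diet change together, took 2 of 8 probe sets past 2-fold upward, both of Cyp2b10, and 1 downward, Cyp1a2. Over all probe sets these shares were 8.32% and 6.87%. The 3 comparisons share arrays and are not independent of each other.

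The other P450s of families 1 to 3, taken from the annotation by symbol, had 32 probe sets with ratios on both control arrays. With age 6 passed 2-fold downward (18.8%) and 4 upward (12.5%), against 8.8% and 9.55% of all probe sets. The median difference was -0.50 (log2), and the highest of the increases was 1.525. The lowest were Cyp2d9 (-2.64), which in mouse liver is more highly expressed in males, and Cyp2f2 (-2.36), followed by Cyp2c54 (-2.06) and Cyp3a16 (-1.71). For Cyp2d9 the log2 ratios were 2.362 in young control, -0.281 in old control and -0.404 with Chlorella, so that the young array stood apart from both old arrays. By diet 1 of 34 passed 2-fold upward (2.94%, against 0.841% of all probe sets), Cyp2c37, an arachidonic acid hydroxylase, at 2.01-fold. Its ratios were 0.371, -0.371 and 0.633 in the same order, so that old control was lowest.

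P450s of families 4 and above, which mostly handle fatty acids, sterols and bile acids, had 5 of 19 probe sets past 2-fold downward by age (26.3%). None passed upward. Over all probe sets the shares were 8.8% and 9.55%. Cyp4f14 (-1.40) and Cyp4f13 (-1.39) were the lowest. By diet Cyp4a14, a fatty acid hydroxylase controlled by Ppara, was the only one of 20 past 2-fold (1.08, log2), against 0.841% of all probe sets upward.

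Of 29 probe sets for the partners of P450, electron donors and haem supply other than Por, 3 passed 2-fold downward with age (10.3%) and 1 upward (3.45%), shares near or below the 8.8% and 9.55% of all probe sets. Alas1, the rate-limiting enzyme of haem synthesis in liver, had log2 ratios at 1424126_at of 1.045 in young control, -0.505 in old control and 0.027 with Chlorella, an age difference of -1.55. Its weaker probe set 1455282_x_at gave -0.92 by age, short of 2-fold, and -0.03 by diet, against a diet difference of 0.53 at 1424126_at. Abcb6, a porphyrin transporter (-1.53), was also lower, and Uros was higher (1.14). Alad was lower at 1457306_at (-1.34) but not at its brighter probe set 1424877_a_at (0.02), so its probe sets disagreed. No member of this list passed 2-fold by diet.

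The receptors and factors that control drug metabolism had 45 probe sets, from 24 genes. With age 16 passed 2-fold downward (35.6%) and 1 upward (2.22%), against 8.8% and 9.55% of all probe sets. The median was -0.83 (log2). Probe sets of the same gene, such as those of Hnf4a, are counted separately and are not independent. Ppara (-1.84 at 1449051_at) and Hnf4a (-1.80 at 1450447_at), a hepatocyte transcription factor, were among the lower ones. Nr1i3, the receptor that drives Cyp2b10, differed by 0.43 by age and 0.46 by diet at its probe set 1425392_a_at, with log2 signals of 12.09, 12.52 and 12.98. Nr1i2 differed by -0.65 and 0.21. Rxra, the partner of both receptors, was the only factor past 2-fold by diet (1.32 at 1425762_a_at, with 0.32 at 1454773_at). This was 1 of 43 probe sets (2.33%), against 0.841% of all probe sets upward. At 1425762_a_at the log2 ratios were 0.662 in young control, -1.224 in old control and 0.091 with Chlorella, so that old control was lowest.

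The calls of the conjugating enzymes are to be read against 9.55% upward and 8.8% downward by age over all probe sets, and differences between their classes were not tested. Sulphotransferases had 3 of 9 probe sets past 2-fold upward with age (33.3%) and none downward, led by Sult1b1 (1.29, log2). Glutathione S-transferases had 1 of 27 higher (3.70%), Mgst3 (1.26), and UDP-glucuronosyltransferases 2 of 12 lower (16.7%), Ugt2b34 (-1.16) and Ugt2b37 (-1.02). By diet only Ugt2b37 (1.11) passed 2-fold among these classes. Other oxidising and hydrolysing enzymes had 2 of 44 lower and 1 higher by age, and 1 of 45 higher by diet, the carboxylesterase Ces1d at 1435371_x_at (1.66, log2), whose other probe sets gave 0.35 and 0.43. Drug transporters had 5 of 20 lower by age, among them Slc22a7 (-2.08), an organic anion carrier, and none past 2-fold by diet. These counts leave out 10 probe sets without a ratio on both controls, including those of Slco1a1, a bile acid and organic anion carrier. Its log2 signals were 11.52, 5.13 and 4.97 at 1420379_at and 11.13, 6.43 and 4.93 at 1449844_at, high on the young array alone, and the ratio cells of both old arrays are empty, so a count over probe sets with ratios cannot include this difference.

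**Figure D3:**
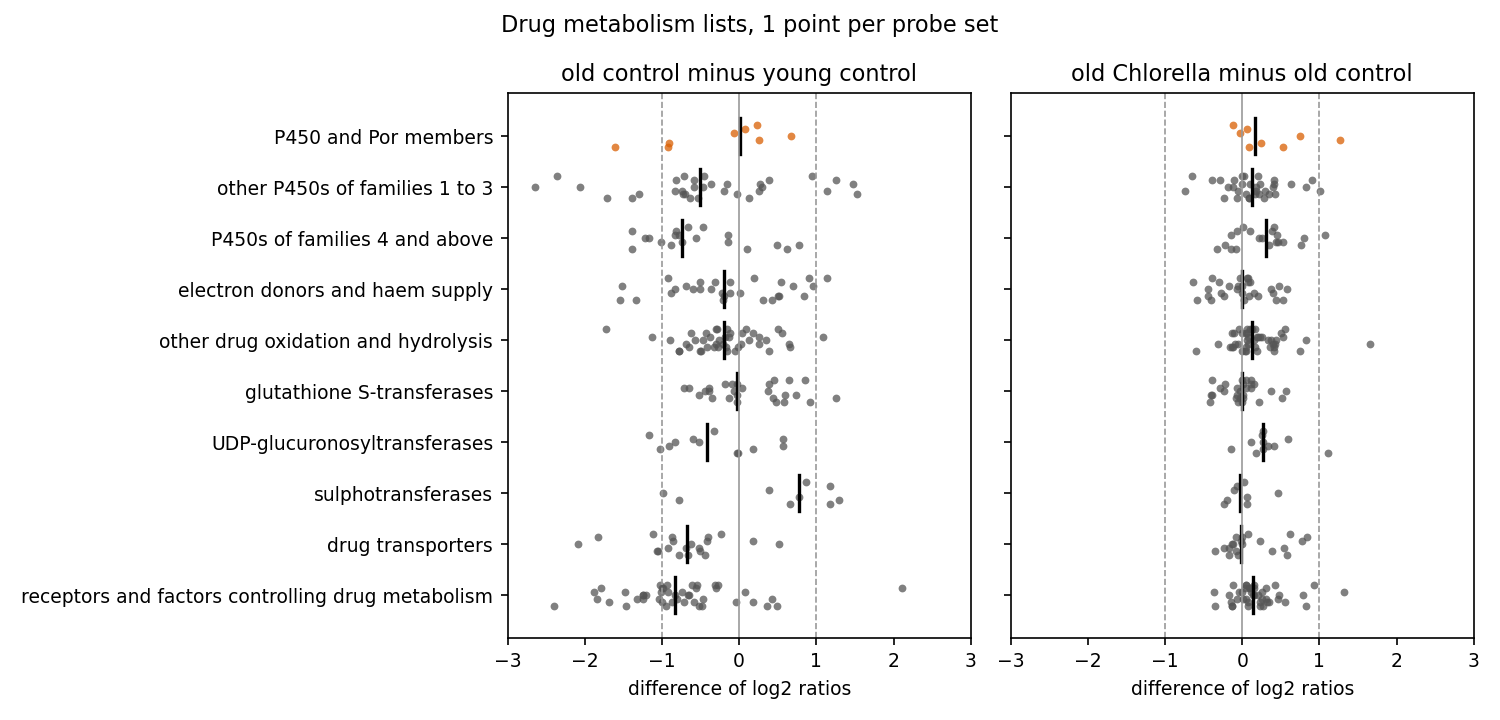
Difference of log2 ratios (horizontal axis) for the member probe sets and 9 lists of drug metabolism genes (vertical axis), for old control minus young control (left) and old Chlorella minus old control (right). Each point is a probe set, black bars are medians and dashed lines mark 2-fold; the age differences spread further than the diet differences, and the receptors have a median of -0.83 by age.

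Since Cyp2b9 is female-predominant and hepatic P450s differ by sex in mice, lists of sex-biased liver genes were also read. Of 18 other probe sets of female-predominant genes 3 passed 2-fold downward with age (16.7%) and none upward, with Cyp3a16 lowest. Of 8 probe sets of male-predominant genes 4 were lower (50%) and none higher. Over all probe sets 8.8% were lower and 9.55% higher. These lists overlap those above, since Cyp3a16, Cyp2d9 and Cyp2f2 were already counted among the P450s. The medians were -0.50 and -0.98 (log2), and the difference between the lists was not tested. Of the 19 male-predominant probe sets on the array, 11 lacked a ratio on at least 1 control array, among them both of Slco1a1 and that of Hsd3b5, a steroid reductase, whose log2 signals were 10.71, 5.66 and 6.02. These signals differ with age by more than any counted member of the list. None of the counted probe sets passed 2-fold by diet. The labelled sex was checked against Xist, the RNA of the inactive X chromosome. At 1427262_at its log2 signals were 10.04 in young control, 11.27 in old control and 11.33 with Chlorella. At 1436936_s_at they were 10.31, 11.69 and 11.42, and at the weaker 1427263_at 6.23, 8.25 and 7.55. Xist thus had a ratio on every array but was lowest on the young array at each probe set, for a reason that was not tested. No probe set of the Y-linked genes Eif2s3y, Kdm5d, Usp9y and Uty had a ratio on any array.

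By the 2 differences together, the probe sets most like Cyp1a2 among 14223 with a single gene symbol were those of Gna12, Ncl and Zfp622, at distances of 0.008, 0.034 and 0.039 (log2). Those most like 1422257_s_at of Cyp2b10 were Zfp595, 4833417C18Rik and Tsks, at 0.18, 0.20 and 0.21. Likeness over 3 arrays says little, since many probe sets share any pair of values.

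Several measures of the tissue and the arrays moved with age beside these results. Hepatocyte markers were bright on every array, with summed log2 signals of 18.77 in young control, 19.18 in old control and 19.09 with Chlorella. Markers of pericentral hepatocytes, the cells in which Cyp1a2 and Cyp2e1 are found, summed to 15.39, 14.51 and 14.45, and all 6 of their probe sets with ratios on both controls were lower in old control, 3 of them by 2-fold. Those of periportal hepatocytes summed to 15.64, 14.03 and 14.10, with 4 of 7 past 2-fold downward and 2 upward. Over all probe sets 8.8% were 2-fold lower by age and 9.55% higher. As deposited, Cyp2e1 itself differed by 0.08 (log2) by age and Cyp1a2 by -1.61. B cell markers summed to 9.68, 12.14 and 12.17, neutrophil markers to 9.59, 12.61 and 13.29, and Kupffer cell markers to 14.34, 15.35 and 15.31. Endothelial markers summed to 13.17, 13.87 and 13.76, a sum carried by Clec4g, while 3 of their 5 probe sets with ratios were lower with age (median -0.75, log2). Stellate cell markers summed to 13.74, 14.44 and 14.37, a sum carried by Dcn, with 3 of 5 higher and 2 lower. T cell markers summed to 8.02, 8.94 and 9.21, but the only one with ratios on both controls differed by -0.02. No marker probe set was at 0 on all 3 arrays. Markers of adipocytes, kidney and intestine had no ratio on any array, those of bile duct cells had 1 ratio each on the control arrays, and of the acinar pancreas Cela1 alone had ratios, with log2 signals of 12.67, 13.21 and 12.93. In whole liver, fewer cells of a type and less RNA per cell cannot be told apart.

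The control transcripts with probe sets at both ends had a lower age difference at the 5' than at the 3' end, by -1.79 (Pcx), -0.38 (beta-actin) and -0.22 (Gapdh), against -0.08, -0.02 and 0.05 by diet. The bacterial controls, 18 probe sets for hybridization and 24 for poly-A RNA, all had positive age differences. The part of cell makeup, RNA condition and array scaling in the age differences of Cyp1a2, Cyp2b9 and Por was not tested. Nor was their part in the diet difference of Cyp2b10. With 1 pool and 1 array per group, none of them can be told apart from age or diet. By diet the bacterial controls went the other way, with a median of -0.14 for the hybridization and -0.32 for the poly-A controls. A shift to them raises every diet difference alike, that of Cyp2b10 included, so its sign after the shift tests nothing.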

How the data were processed

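Liver RNA was hybridized to 1 one-colour Affymetrix array per group. Per the file headers, the deposited log2 ratios are each array's normalized expression over the median of all samples. The second deposited file holds log2 signals of 45037 probe sets without controls. Its unit was read from the values: its differences equal those of the ratio table, and its trimmed linear mean is 500.0 on each array (2% trimmed at each end). The submitters' processing notes name MAS5, the array maker's summary method. Neither its version nor the reason for empty cells is given there. Column medians of the log2 signals were 6.08, 6.33 and 6.46, and no centring by gene was applied to them. Columns of the ratio table were assigned by sample title: Young and Chlorella each fit 1 title, which leaves Old Control for the column named Old. The differences between columns were then checked against the log2 signals, whose columns carry sample identifiers.

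Differences were taken between arrays with Python 3.11.15 and pandas 2.3.3, without p-values, because each group has 1 array. The number of arrays limits the precision. The calculation was tested on simulated data. Genes came from the platform annotation, with 1 symbol for 34945 probe sets, several for 932 and none for 9160, and lists used single-symbol probe sets only. From each list the text names at most 4 probe sets past 2-fold per comparison, and any factor of the receptor list. The 4 were taken among probe sets with a signal at or above the array median on at least 1 of the arrays compared. This does not exclude weak signals. Genes named beyond this (Cyp2b13, Slco1a1, Hsd3b5, Clec4g, Dcn, Xist, Y-linked genes, other probe sets of Ces1d, Alad and Alas1, Cela1) were chosen after their values were seen. For each member past 2-fold by age or diet, the 3 nearest genes by Euclidean distance are given. Promoters were aligned with Biopython 1.88 (match 1, mismatch -1, gap opening -3, gap extension -1). Members and lists were chosen with earlier results of these data known. Other scalings, thresholds, a filter on low signals and 1 value per gene were tried.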

Additional observations from a re-analysis of the deposited data

How the results depend on the processing

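The number of member probe sets past 2-fold by age, 1 of 8 as deposited, became 3 after shifting the arrays to the hybridization controls and 3 after shifting to the poly-A controls, which took in Cyp2b9 and Por, and 4 at a 1.5-fold threshold. The shifts lower every age difference: of all 16667 probe sets, 3967 and 7097 were then 2-fold lower. By diet the 1 of 8 became 2 with the poly-A controls and 2 at 1.5-fold, the second being the other Cyp2b10 probe set, and 0 at 3-fold. With the poly-A controls 460 of all 16524 probe sets were 2-fold higher by diet. The 3 probe sets past 2-fold between old Chlorella and young control became 0 at 3-fold. Shares of all probe sets at 1.5-fold and 3-fold are not given here, so the member counts at these thresholds have no background. Array medians at 0, quantile normalization, series matrix signals, a filter on low signals and 1 value per gene left these counts within 1.5 times. No member or other named gene past 2-fold changed sign under any of the 5 other sources or scalings, while 60 of 120 member values moved by more than 0.1 (log2). For most of these the sign was fixed in advance. The series matrix repeats the deposited differences, and every shift of an array was smaller than 2-fold. Only quantile normalization could have reversed a difference past 2-fold. Over all probe sets the 3058 age calls of 16667 became 4694 and 7453 with the hybridization and poly-A controls. They became 1764 of 15735 after quantile normalization and 17027 of 45037 in the series matrix, which also lists probe sets without a ratio. The 251 diet calls of 16524 became 334 and 508 with these controls. Quantile normalization gave 817 of 15735 and the series matrix 12340 of 45037. No paired analysis was possible because each group has 1 array, and for the same reason no replicate could be left out. A filter on low signals cannot be applied to Cyp1a1, which has a ratio on 1 array only.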
